A study of Mus musculus with 18 samples.

Results

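The comparison described here is that of IL3Ra P248L cells after 5 days of interleukin-3 (IL-3) with the same line untreated, 3 RNA-seq libraries in each group and 6 of the 18 libraries of the series. The libraries were taken by the receptor and day in their labels. The cells, called FDH cells, are immortalized fetal liver cells from BALB/c mouse embryos at day E14.5, of the background bc-/- bIL-3-/-, in which the genes of the common beta chain and of its mouse IL-3-specific relative are given as disrupted. They were transduced with bc together with IL3Ra P248L or wild-type IL3Ra, and each receptor is represented by a single line at passages 10 to 12. The series title calls the mutant receptor a Site 4 mutant, and the species of the transduced subunits is not given in the labels. Day 5 P248L cells had, after washing, 5 days in IL-3 medium at 100 ng/ml. Untreated P248L cells came from growth medium with doxycycline and mouse stem cell factor (SCF) at 100 ng/ml, neither of which is listed for the IL-3 medium, so the gain of IL-3 and the loss of SCF and doxycycline cannot be told apart. The P248L cells at day 2 of IL-3 and the wild-type line at the same 3 times serve as comparisons. The labels do not say whether the replicates were separate cultures, so the p-values measure only the spread between these samples, which may be technical.

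IL-3 binds its alpha subunit and then the common beta chain, which signals through JAK2 and STAT5 and through the RAS and MAPK pathway. The cytokine keeps multipotent myeloid progenitors alive and supports their output of granulocytes, macrophages, basophils and mast cells, while SCF acts through Kit on earlier progenitors. Myeloid maturation proceeds from cells that make primary granules with myeloperoxidase and serine proteases to cells that make secondary and tertiary granules with lactoferrin, lipocalin and gelatinases, or to monocytes and macrophages with many lysosomes. Along that path cells normally leave the cell cycle and reduce ribosome production.

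The day 5 P248L libraries held between 13898296 and 23320571 reads in genes, and the untreated libraries between 13844612 and 27181962. CPM below are counts per 1000000 reads in genes after scaling by trimmed mean of M values (TMM), and compare libraries for 1 gene, not genes with each other, since they are not per length. The 10 genes with most reads took between 10.8% and 11.3% of a day 5 library and between 4.29% and 5.59% of an untreated one. Untreated library 1 stood apart from untreated libraries 2 and 3, with median absolute log2 differences of 0.356 and 0.495 from them, against 0.204 between libraries 2 and 3 and at most 0.177 between day 5 libraries. The untreated cells expressed progenitor genes, with Cd34 between 1070 and 1148 CPM and Mpo between 5074 and 7549 CPM. Of 17 markers of hepatocytes, stroma and endothelium 9 had no read at day 5 and 9 none in untreated cells, albumin among both. That list summed to between 408 and 498 CPM at day 5 and between 544 and 669 CPM in untreated cells, most of it transferrin (Trf, 360.0 ± 45.5 CPM at day 5 and 483 ± 53 CPM untreated), and of its 5 members tested 1 rose and 2 fell.

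Of 11942 genes tested with edgeR's quasi-likelihood test, 8485 (71.1%) had an adjusted p under 0.05, the threshold used throughout, with 4157 (34.8%) higher and 4328 (36.2%) lower at day 5. The median log2 fold change over all genes tested was -0.02. Without untreated library 1 there were 8367 calls, 4125 higher and 4242 lower. The split depended on the scaling, with 3462 higher and 5156 lower without scaling beyond library size, 3881 and 4683 with upper-quartile factors, and 4432 and 4078 with DESeq2. Because most genes passed, a list is described by its members called in each direction and its median, and a share near 34.8% or 36.2% is the background. Among the calls 2826 were at least 2-fold higher and 2519 at least 2-fold lower, and past 16-fold the split was 711 higher to 128 lower.

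Most receptors of myeloid growth factors rose, while the receptors of early progenitors fell. Kit, the SCF receptor (chr5:75574987-75656722, GRCm38), had 32.9, 31.2 and 22.5 CPM in day 5 P248L cells, against 228, 335 and 353 CPM in untreated cells. Every day 5 library was lower, and the log2 fold change was -3.40 ± 0.21 (SE), adjusted p = 1.7e-10. Csf2ra, the alpha subunit of the GM-CSF receptor, had 193, 156 and 183 CPM at day 5, against 6.61, 5.44 and 6.79 CPM untreated (log2 fold change 4.83 ± 0.19, adjusted p = 2.8e-13). Csf1r, the receptor of the macrophage growth factor M-CSF, averaged 223 ± 30.0 CPM at day 5 and 5.24 ± 0.336 CPM untreated (log2 fold change 5.41 ± 0.18, adjusted p = 4.0e-14). Csf3r, the G-CSF receptor of neutrophils, averaged 71.3 ± 19.3 CPM at day 5 and 12.7 ± 1.46 CPM untreated (SD, n = 3 each). The groups did not overlap for any of these receptors.

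Reads at the genes of the IL-3 receptor itself can come from the mouse genes or from the transgenes, which these counts cannot separate, and Csf2rb and Csf2rb2 are close copies between which reads may be split. Csf2rb had 270, 217 and 227 CPM at day 5, against 60.4, 67.7 and 64.2 CPM untreated (log2 fold change 1.89 ± 0.16), and Csf2rb2 had 339.5, 254 and 307 CPM at day 5, against 94.7, 98.0 and 89.0 CPM untreated (log2 fold change 1.68 ± 0.14). Csf2rb2 is the gene of the IL-3-specific relative that the labels give as disrupted, and it is not among the transduced subunits; where its reads come from was not tested. Il3ra had 2.64, 2.22 and 3.33 CPM at day 5, against 8.93, 6.23 and 3.59 CPM untreated (log2 fold change -1.21 ± 0.35, adjusted p = 0.0055), low in all 6 libraries. Il5ra, the IL-5 receptor subunit of eosinophils, was at 0.118 ± 0.0487 CPM at day 5 and 2.11 ± 0.257 CPM untreated. Of 17 receptors tested, 12 rose and 5 fell, with a median log2 fold change of 1.68. Il1r2, a decoy receptor for interleukin-1, had 419, 453 and 556 CPM at day 5, against 0.113, 0.262 and 0.064 CPM untreated. The TNF receptor Tnfrsf1b rose by 2.67 ± 0.17 and the interferon-gamma receptor chain Ifngr1 by 2.09 ± 0.12. Hoxb8, a homeobox gene that can immortalize progenitors, had no read in any of the 18 libraries.

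Genes of stem and progenitor cells fell. Of 17 members tested, 15 fell and 1 rose, with a median log2 fold change of -3.0. Flt3, a receptor of early progenitors (chr5:147330741-147400489), had 0.232, 0 and 0.0628 CPM at day 5, against 108, 137 and 135 CPM untreated (log2 fold change -10.00 ± 0.39, adjusted p = 3.2e-13). It was the largest fall among genes named by the rule given under the processing. Cd34, the progenitor surface protein, had 124, 144 and 132 CPM at day 5, against 1148, 1092 and 1070 CPM untreated. Myb, a transcription factor that keeps progenitors dividing, had 65.0, 85.3 and 53.2 CPM at day 5, against 630, 701 and 735 CPM untreated, and Myc fell by 1.97 ± 0.20 on the log2 scale. Hlf, a stem cell factor, averaged 2.67 ± 0.246 CPM at day 5 and 151 ± 35.9 CPM untreated. Angpt1, a niche growth factor, averaged 1.66 ± 1.0 CPM at day 5 and 143 ± 51.7 CPM untreated. Hoxa9 had 2.87, 0.844 and 1.57 CPM at day 5, against 11.5, 93.2 and 147 CPM untreated, with untreated library 1 well below its replicates.

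The member that rose was Prom1, the stem cell surface protein CD133, with 96.1, 114 and 104 CPM at day 5 and no read in any untreated library, at least 2503-fold higher against a floor of 3 reads over the group. Mycn was near 0 in both groups (0.0619 ± 0.0152 CPM at day 5 and 0.0125 ± 0.0217 CPM untreated). Other large falls included Amot, which acts in cell polarity (log2 fold change -8.42 ± 0.52), the membrane proteins Tmem176b (-6.94 ± 0.39) and Tmem176a (-6.92 ± 0.58), and Il12a, the p35 chain of interleukin-12 (-6.48 ± 0.36). Auts2 (-6.34), the adhesion receptor gene Eltd1 (-6.06), the glycosyltransferase gene Gcnt4 (-6.01) and the granule protease gene Ctsg (-5.95) were also among the 12 largest falls, as were Angpt1 and Hlf.

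The 12 largest rises included genes of mature phagocytes. Fpr1, the formyl peptide receptor of neutrophils, had 129, 99.6 and 105 CPM at day 5 and no untreated read, at least 2758-fold higher. S100a9 (chr3:90692630-90695721) had 13322, 20122 and 17706 CPM at day 5, against 0.938, 2.36 and 0.576 CPM untreated (log2 fold change 13.58 ± 0.52, adjusted p = 2.1e-13). Its partner in the calprotectin complex, S100a8 (chr3:90669071-90670034), had 10210, 16337 and 15580 CPM at day 5, against 0.788, 2.03 and 0.769 CPM untreated. Day 5 library 1 was the lowest of its group for both genes, and all day 5 libraries were far above the untreated ones. The other 7 of the 12 largest rises without a read in untreated cells, after Fpr1 and Prom1, were the epithelial membrane protein Emp1 (at least 2635-fold higher), the protease Capn2 (at least 2537-fold), Retnlg, a resistin-like protein of neutrophils (at least 2277-fold), the ubiquitin ligase March1 (at least 2032-fold), the interleukin-7 receptor Il7r (at least 1730-fold), Klk1b11 (at least 3334-fold) and Serpinb9e (at least 2179-fold). Klk1b11, Serpinb9e and the stefin Stfa2l1 belong to families of near-identical copies, so their reads are uncertain between copies; Stfa2l1 averaged 1345 ± 96.8 CPM at day 5 and 0.0687 ± 0.0658 CPM untreated.

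The genes that took most reads at day 5 were Thbs1, which encodes the matrix protein thrombospondin (24263, 25722 and 22976 CPM at day 5, against 195, 243 and 256 CPM untreated), S100a9, Lyz2, S100a8 and Psap. In untreated cells the genes that took most reads were Hsp90ab1, Eef1a1, Mpo, Pabpc1 and Ncl. The chaperone Hsp90ab1 averaged 2432 ± 95.9 CPM at day 5 and 6621 ± 1844 CPM untreated, and the translation factor Pabpc1 averaged 1799.8 ± 217 CPM at day 5 and 4353 ± 1865 CPM untreated. Untreated library 1 was the highest of its group for both.

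**Figure D1:**
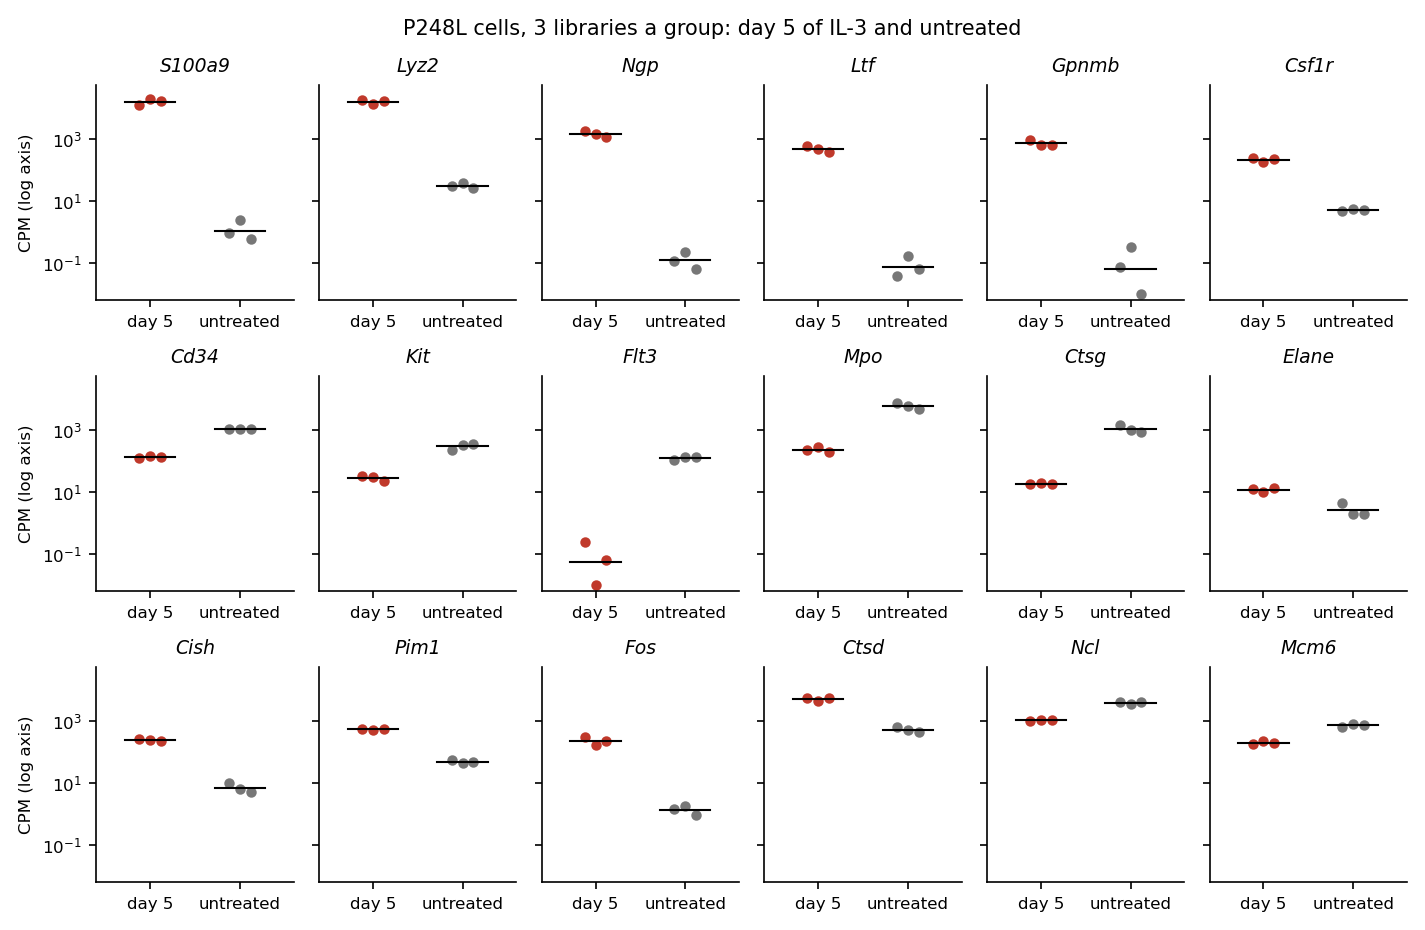
CPM (log axis) of 18 genes in the 3 P248L libraries at day 5 (red) and the 3 untreated ones (grey), with the geometric mean as a bar; a library with no read is drawn at 0.01 CPM. The groups are separate for each of the 18 genes, and Elane, higher at day 5, stands against the falls of its neighbours Mpo and Ctsg.

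Primary granule genes split. Of 9 tested, 5 fell and 4 rose (median log2 fold change -0.71), so every member was called, against 71.1% of all genes. Mpo, myeloperoxidase (chr11:87793784-87804412), had 236, 279 and 204 CPM at day 5, against 7549, 6314 and 5074 CPM untreated (log2 fold change -4.72 ± 0.28, adjusted p = 7.6e-11). Ctsg, cathepsin G, had 18.7, 19.3 and 17.9 CPM at day 5, against 1501, 1045 and 903 CPM untreated. The proteinase 3 gene Prtn3 fell by 1.88 ± 0.27 and Ms4a3, a marker of granulocyte and monocyte progenitors, by 2.14 ± 0.16 on the log2 scale. Elane, neutrophil elastase, rose at low levels, with 12.1, 10.2 and 13.1 CPM at day 5, against 4.50, 1.90 and 1.92 CPM untreated (log2 fold change 2.07 ± 0.36, adjusted p = 5.3e-05). The other members that rose were the cathepsin C gene Ctsc (612 ± 73.8 CPM at day 5 and 100.4 ± 2.23 CPM untreated), Igsf6 (272 ± 18.2 CPM at day 5 and 27.5 ± 4.53 CPM untreated) and Gstm1 (159 ± 19.9 CPM at day 5 and 24.6 ± 8.72 CPM untreated).

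Secondary and tertiary granule genes all rose: 19 of 19 tested, with a median log2 fold change of 9.42, or 8.48 with the genes without untreated reads set at their bound. Ngp, a granule protein of neutrophils (chr9:110419808-110423012), had 1858, 1503 and 1159 CPM at day 5, against 0.113, 0.229 and 0.064 CPM untreated (log2 fold change 13.23 ± 0.54, adjusted p = 5.2e-13). Ltf, lactoferrin, had 613, 499 and 399.6 CPM at day 5, against 0.0375, 0.164 and 0.064 CPM untreated. Lcn2, the iron-trapping lipocalin, had 731, 671 and 669 CPM at day 5, against 3.12, 2.03 and 1.86 CPM untreated. The antimicrobial peptide gene Camp reached 22.9 ± 2.25 CPM at day 5, against 0.0125 ± 0.0217 CPM untreated. Lyz2, lysozyme, had 18802, 13652 and 17392 CPM at day 5, against 29.8, 39.2 and 26.5 CPM untreated (log2 fold change 9.02 ± 0.29), and the complement receptor chain Itgam rose by 4.73 ± 0.18.

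Of 21 late neutrophil genes tested, 17 rose and 1 fell (median log2 fold change 4.51). Besides the S100 genes and Fpr1, Fpr2 rose by 11.90 ± 0.31 and Alox5ap, which feeds leukotriene synthesis, by 1.81 ± 0.22. The faller was the lectin Clec4e, at 208 ± 29.7 CPM at day 5 and 353 ± 35.9 CPM untreated. Cxcr4 had 128 ± 19.7 CPM at day 5 and 98.0 ± 30.4 CPM untreated, and passed only when untreated library 1 was left out (log2 fold change 0.64). Cxcr1 had almost no reads. All 8 tested subunits and partners of the NADPH oxidase rose (median 1.40), among them Ncf1 (646 ± 23.6 CPM at day 5 and 194 ± 4.74 CPM untreated).

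Monocyte and macrophage genes rose alongside the neutrophil ones. Of 20 tested, 16 rose and 1 fell (median log2 fold change 4.03, or 3.01 with bounds), and the list summed to between 5984 and 6871 CPM at day 5 and between 1669 and 2148 CPM untreated. In bulk RNA, more cells of a type and more RNA per cell cannot be told apart, nor can a mixture of neutrophil-like and macrophage-like cells from cells that express both sets. Gpnmb, a lysosomal glycoprotein of macrophages, had 978, 671 and 669.9 CPM at day 5, against 0.0751, 0.328 and 0 CPM untreated (log2 fold change 12.16 ± 0.72). Emr1, the gene of the F4/80 antigen, had 624, 636 and 683 CPM at day 5, against 149, 195 and 199.8 CPM untreated. F13a1, the factor XIII subunit of monocytes, had 858, 764 and 873 CPM at day 5, against 177, 251 and 244 CPM untreated. The chemokine receptor Ccr2 was abundant in both groups, at 1845 ± 165 CPM at day 5 and 1323 ± 229 CPM untreated (adjusted p = 0.12). The faller was Apoe, low in both groups, at 5.16 ± 1.5 CPM at day 5 and 10.3 ± 2.71 CPM untreated, and without untreated library 1 it did not pass (log2 fold change -0.73). Defining genes of resident macrophages were scarce: Mertk had 0.082 ± 0.0773 CPM at day 5 and no read untreated, and the complement genes C1qa, C1qb and C1qc were not tested because they had too few reads. All 6 Fc receptor genes tested rose (median 2.49), led by reads at Fcgr2b (698 ± 76.2 CPM at day 5 and 205 ± 10.8 CPM untreated) and Fcgr3 (664 ± 61.2 CPM at day 5 and 119 ± 14 CPM untreated).

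Mast cell genes had 5 members tested, of which 3 fell and 1 rose, and 6 of the 15 listed had no read at day 5 and 9 none untreated. Cpa3, the mast cell carboxypeptidase, had 38.3, 47.9 and 27.1 CPM at day 5, against 468, 554 and 509 CPM untreated (log2 fold change -3.76 ± 0.21, adjusted p = 3.7e-11). Hdc, which makes histamine, fell by 2.73 ± 0.26 and Gata2 by 3.0 ± 0.20 on the log2 scale. Gata2 is also in the list of stem and progenitor genes above. Of 8 basophil genes tested 5 rose and 1 fell (median log2 fold change 2.17, or 1.73 with bounds). The faller was the protease Mcpt8, with 2.19 ± 0.587 CPM at day 5 and 37.7 ± 15.3 CPM untreated. Among the risers, Cd200r1, an inhibitory receptor that macrophages also carry, had 398 ± 12.7 CPM at day 5 and 75.5 ± 12.3 CPM untreated. Cyp11a1 rose to 108 ± 17.7 CPM at day 5 from 3.58 ± 0.241 CPM untreated, and Il6 to 1.83 ± 1.05 CPM from 0.460 ± 0.0915 CPM. Of 6 eosinophil genes tested 3 rose and 1, Il5ra, fell (median log2 fold change 0.98). Prg2 averaged 7.88 ± 1.86 CPM at day 5 and 0.138 ± 0.0455 CPM untreated. Epx averaged 4.01 ± 1.76 CPM at day 5 and had no read untreated, at least 103-fold higher. The list summed to between 35.7 and 44.3 CPM at day 5 and between 16.6 and 19.7 CPM untreated. Most of that was Siglec5, at 27.9 ± 2.26 CPM at day 5 and 14.8 ± 2.17 CPM untreated. Megakaryocyte genes had 3 members higher and 3 lower of 10 tested, with Vwf at 74.1 ± 16.2 CPM at day 5 and 0.0234 ± 0.0204 CPM untreated; 5 were higher without untreated library 1. Of 4 erythroid genes tested 1, the receptor Epor, rose and 1, the transferrin receptor Tfrc, fell, and of 7 lymphoid genes tested 3 rose and 2 fell, with 10 of the 18 listed at no read at day 5. Of 8 dendritic cell genes 4 rose and 1, Flt3, fell; the factor Irf4 had 26.5 ± 2.97 CPM at day 5 and no read untreated, at least 632-fold higher.

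Among 27 transcription factors of myeloid cells tested, 21 rose and 4 fell (median log2 fold change 1.88, or 1.65 with bounds). Klf6 had 791, 614 and 785 CPM at day 5, against 34.0, 27.0 and 25.5 CPM untreated. Hif1a, the oxygen-regulated factor, averaged 439.7 ± 17.4 CPM at day 5 and 145 ± 34.6 CPM untreated, and Zeb2 averaged 365 ± 27.3 CPM at day 5 and 99.2 ± 13.9 CPM untreated. Cebpe, which drives secondary granule genes, had 55.6, 56.8 and 49.7 CPM at day 5, against 11.7, 5.97 and 5.89 CPM untreated, and Irf8, a factor of monocytes, rose by 1.38 ± 0.18. The 4 that fell were Cebpa (34.8 ± 0.767 CPM at day 5 and 177 ± 39.9 CPM untreated), Gfi1, Gfi1b and Runx3. Klf4, a factor of monocytes, was at 0.0154 ± 0.0267 CPM at day 5 and 0.0125 ± 0.0217 CPM untreated.

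STAT5-responsive genes rose in 14 of 17 cases and fell in 1 (median log2 fold change 2.94). STAT5 activity itself was not measured, and Mcl1 and Cdkn1a are also in the list of p53 and apoptosis genes below. Cish, a feedback inhibitor of cytokine receptors, had 259, 241 and 237 CPM at day 5, against 10.1, 6.52 and 5.32 CPM untreated (log2 fold change 5.05 ± 0.22, adjusted p = 9.8e-13). Pim1, a survival kinase, had 561, 507 and 585 CPM at day 5, against 55.6, 44.8 and 48.4 CPM untreated, and the anti-apoptotic Mcl1 had 1159, 966 and 1093 CPM at day 5, against 222, 202 and 216 CPM untreated. The cell cycle inhibitor Cdkn1a averaged 561 ± 123 CPM at day 5 and 73.2 ± 23.0 CPM untreated. Socs2 was the faller, at 34.7 ± 4.93 CPM at day 5 and 54.2 ± 17.2 CPM untreated, and did not pass without untreated library 1 (log2 fold change -0.36). Pim2 and Ccnd1 did not pass, Ccnd1 with 26.0 ± 2.45 CPM at day 5 and 25.9 ± 3.15 CPM untreated.

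Immediate targets and feedback inhibitors of the MAPK pathway rose in 15 of 23 cases and fell in 4 (median 1.56). Fos had 300.2, 167 and 239 CPM at day 5, against 1.43, 1.77 and 0.897 CPM untreated (log2 fold change 7.37 ± 0.32), and the phosphatase Dusp6 had 285, 225 and 301 CPM at day 5, against 104, 82.2 and 89.6 CPM untreated. The members that fell were the phosphatases Dusp2 (log2 fold change -2.93 ± 0.24) and Dusp4 (-2.57 ± 0.30), the factor Etv4 (-2.90 ± 0.31) and the inhibitor Spry1 (-2.09 ± 0.33). Promoters of 4 genes are shown because their lists move together, each 300 bases from RefSeq (GRCm38.p6), 250 before the first listed start of the gene to 50 after it, written 5′ to 3′ on the gene's strand. STAT5 dimers bind TTCNNNGAA, and the Cish promoter, chr9:107296409-107296708 on the plus strand, held 2 copies, in capitals, at and just after the start.
Cish: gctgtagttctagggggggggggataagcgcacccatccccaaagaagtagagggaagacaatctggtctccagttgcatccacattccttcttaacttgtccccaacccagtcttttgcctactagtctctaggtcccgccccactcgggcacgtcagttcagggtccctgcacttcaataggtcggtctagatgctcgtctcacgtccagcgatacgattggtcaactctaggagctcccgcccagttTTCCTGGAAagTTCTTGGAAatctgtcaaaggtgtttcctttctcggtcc
Of 17 STAT5-responsive genes 12 matched a RefSeq promoter by symbol, and 3 of these 12 (25%) held the letters on either strand, against 8.47% of 27025 promoters of the same length. A match is a description of these letters and not a binding site.

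Lysosomal genes rose in 23 of 25 cases with none lower (median log2 fold change 1.98, or 2.57 without untreated library 1). Ctsd, the protease cathepsin D (chr7:142375910-142387827), had 5900.3, 4585 and 5793 CPM at day 5, against 672, 527 and 435 CPM untreated (log2 fold change 3.32 ± 0.21, adjusted p = 2.0e-10). Ctsb had 1835, 1584 and 1884 CPM at day 5, against 184, 169.6 and 140 CPM untreated, and Psap, the precursor of the saposins that assist lipid hydrolysis, had 15484, 11288 and 14455 CPM at day 5, against 284, 318 and 262 CPM untreated. The members that did not pass were the glucosidase Gaa, at 47.7 ± 2.12 CPM at day 5 and 63.6 ± 3.53 CPM untreated, and Ctsh, near 0 in both groups. Factors of the TFEB family bind CACGTG, and 8 of the 18 lysosomal genes with a RefSeq promoter (44.4%) held it, against 7.24% of all promoters. Ctsd held 2 copies, in capitals, in chr7:142387778-142388077 on the minus strand.
Ctsd: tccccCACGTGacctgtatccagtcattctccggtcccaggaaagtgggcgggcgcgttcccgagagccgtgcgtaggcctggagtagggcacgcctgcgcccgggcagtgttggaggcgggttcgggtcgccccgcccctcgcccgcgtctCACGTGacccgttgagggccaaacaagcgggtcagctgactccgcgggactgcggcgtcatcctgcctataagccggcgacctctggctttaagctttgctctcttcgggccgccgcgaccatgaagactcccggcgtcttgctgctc

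Most iron and lipid genes rose as well. Of 12 iron genes tested 8 rose and 3 fell (median 2.67). The ferritin chains Fth1 (5738 ± 594 CPM at day 5 and 969 ± 423 CPM untreated) and Ftl1 (4629 ± 357 CPM at day 5 and 677 ± 227 CPM untreated) have many processed copies in the genome, so their counts are uncertain. Hmox1, which degrades heme, rose by 3.90 ± 0.24, and Tfrc, which brings iron in, had 126, 166 and 124 CPM at day 5, against 452, 688 and 894 CPM untreated. Of 11 genes of lipid efflux and the LXR receptors 9 rose and 1, Apoe, fell (median 1.84); the lipid droplet protein Plin2 had 1354 ± 88.4 CPM at day 5 and 99.0 ± 9.86 CPM untreated, and the cholesterol exporter Abcg1 had 722 ± 131 CPM at day 5 and 71.2 ± 4.61 CPM untreated. Cholesterol synthesis genes rose in 13 of 22 cases and fell in 1 (median 0.60). The synthase Hmgcs1 rose by 0.59 ± 0.15.

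Genes of glycolysis and of the response to low oxygen rose in 16 of 18 cases and fell in 1 (median 1.21). Egln3, a prolyl hydroxylase induced by hypoxia-inducible factors, had 693, 514 and 706 CPM at day 5, against 121, 122 and 126 CPM untreated (log2 fold change 2.37 ± 0.35, adjusted p = 8.9e-06). Vegfa, the vascular growth factor, had 498, 369.6 and 509 CPM at day 5, against 34.4, 45.5 and 46.9 CPM untreated. The glycolytic enzyme Aldoa averaged 2400 ± 152 CPM at day 5 and 888 ± 233 CPM untreated, Gpi1 rose by 1.07 ± 0.18, and the hexokinase Hk3 fell by 0.49 ± 0.16. Subunits of oxidative phosphorylation moved the other way, with 17 of 18 lower and none higher (median -0.77): Atp5b had 673, 739 and 771 CPM at day 5, against 1664, 1491 and 1392 CPM untreated. The groups were separate for 14 of the 18, and without untreated library 1 there were 13 lower (median -0.63). Cox4i1, a subunit of cytochrome oxidase, had 425, 456 and 524 CPM at day 5, against 1096, 633 and 459 CPM untreated, with groups that overlapped, and it did not pass without untreated library 1 (log2 fold change -0.22). Genes induced by amino acid starvation and unfolded proteins gave 13 higher and 5 lower of 18 (median 0.96). Xbp1, a factor of the unfolded protein response, averaged 575 ± 29.7 CPM at day 5 and 128 ± 22.6 CPM untreated, Atf4 rose by 0.57 ± 0.14, and the asparagine synthetase gene Asns averaged 198 ± 14.8 CPM at day 5 and 94.5 ± 10.3 CPM untreated.

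Genes for making ribosomes fell without exception among the 21 tested (median log2 fold change -2.11), beside a background of 36.2% lower. Ncl, the nucleolar protein nucleolin, had 1046, 1118 and 1095 CPM at day 5, against 4096, 3517 and 4160.3 CPM untreated (log2 fold change -1.85 ± 0.18, adjusted p = 4.3e-08), and Nop58, a core protein of small nucleolar particles, averaged 126 ± 11.8 CPM at day 5 and 705 ± 150.2 CPM untreated. Proteins of the mitochondrial ribosome fell in 16 of 18 cases with none higher (median -1.36), and proteasome subunits in 19 of 20 with none higher (median -0.96). Untreated library 1 was the highest of its group for Mrpl12 (32.0, 34.0 and 31.9 CPM at day 5, against 262, 139 and 102 CPM untreated) and for the proteasome subunit gene Psmb1 (262, 285 and 315 CPM at day 5, against 626, 419 and 340 CPM untreated). Without that library 15 mitochondrial ribosome genes (median -1.19) and 17 proteasome genes (median -0.64) were lower. Aminoacyl-tRNA synthetases were more mixed, with 11 lower and 3 higher of 18 (median -0.39): Kars had 106 ± 2.68 CPM at day 5 and 309 ± 36.9 CPM untreated, while Sars had 272 ± 14.2 CPM at day 5 and 129.6 ± 3.0 CPM untreated.

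DNA replication genes fell in 23 of 24 cases (median -1.90). Mcm6, a subunit of the replicative helicase (chr1:128331575-128359705), had 181, 237 and 195 CPM at day 5, against 667, 835 and 753 CPM untreated (log2 fold change -1.88 ± 0.14, adjusted p = 1.0e-09), and the ribonucleotide reductase subunit Rrm1 fell by 1.66 ± 0.12. The member that rose was E2f2, one of the E2F factors that drive this list, with 122, 127 and 119 CPM at day 5, against 32.6, 29.7 and 31.6 CPM untreated. E2F factors bind TTTGGCGC and TTTCCCGC, and 8 of 18 members with a RefSeq promoter (44.4%) held one of these, against 1.63% of all promoters; Mcm6 held 2, in capitals, in chr1:128359656-128359955 on the minus strand.
Mcm6: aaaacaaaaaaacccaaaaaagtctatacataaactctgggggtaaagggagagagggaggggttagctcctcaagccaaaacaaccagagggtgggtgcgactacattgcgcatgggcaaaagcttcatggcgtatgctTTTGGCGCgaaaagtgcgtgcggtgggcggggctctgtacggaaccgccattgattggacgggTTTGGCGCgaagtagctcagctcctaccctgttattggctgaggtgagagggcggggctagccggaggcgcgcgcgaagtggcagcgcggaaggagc
Mitotic genes fell by less, 19 of 20 with none higher (median -1.08). Ccna2, cyclin A2, had 127, 149 and 134 CPM at day 5, against 340, 300 and 320 CPM untreated, and Top2a had 389.7, 514 and 403 CPM at day 5, against 593, 756 and 978 CPM untreated. The proliferation marker Mki67 had 608, 658 and 408 CPM at day 5, against 276, 568 and 916 CPM untreated, with groups that overlapped and no call (adjusted p = 0.86). Among 17 regulators of the cycle 11 rose and 2 fell: the anti-proliferative Btg1 had 676, 508 and 697 CPM at day 5, against 20.8, 26.4 and 22.6 CPM untreated, cyclin D3 (Ccnd3) rose by 0.82 ± 0.23, and the kinase Cdk4 had 130.2 ± 6.80 CPM at day 5 and 579 ± 159 CPM untreated.

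**Figure D2:**
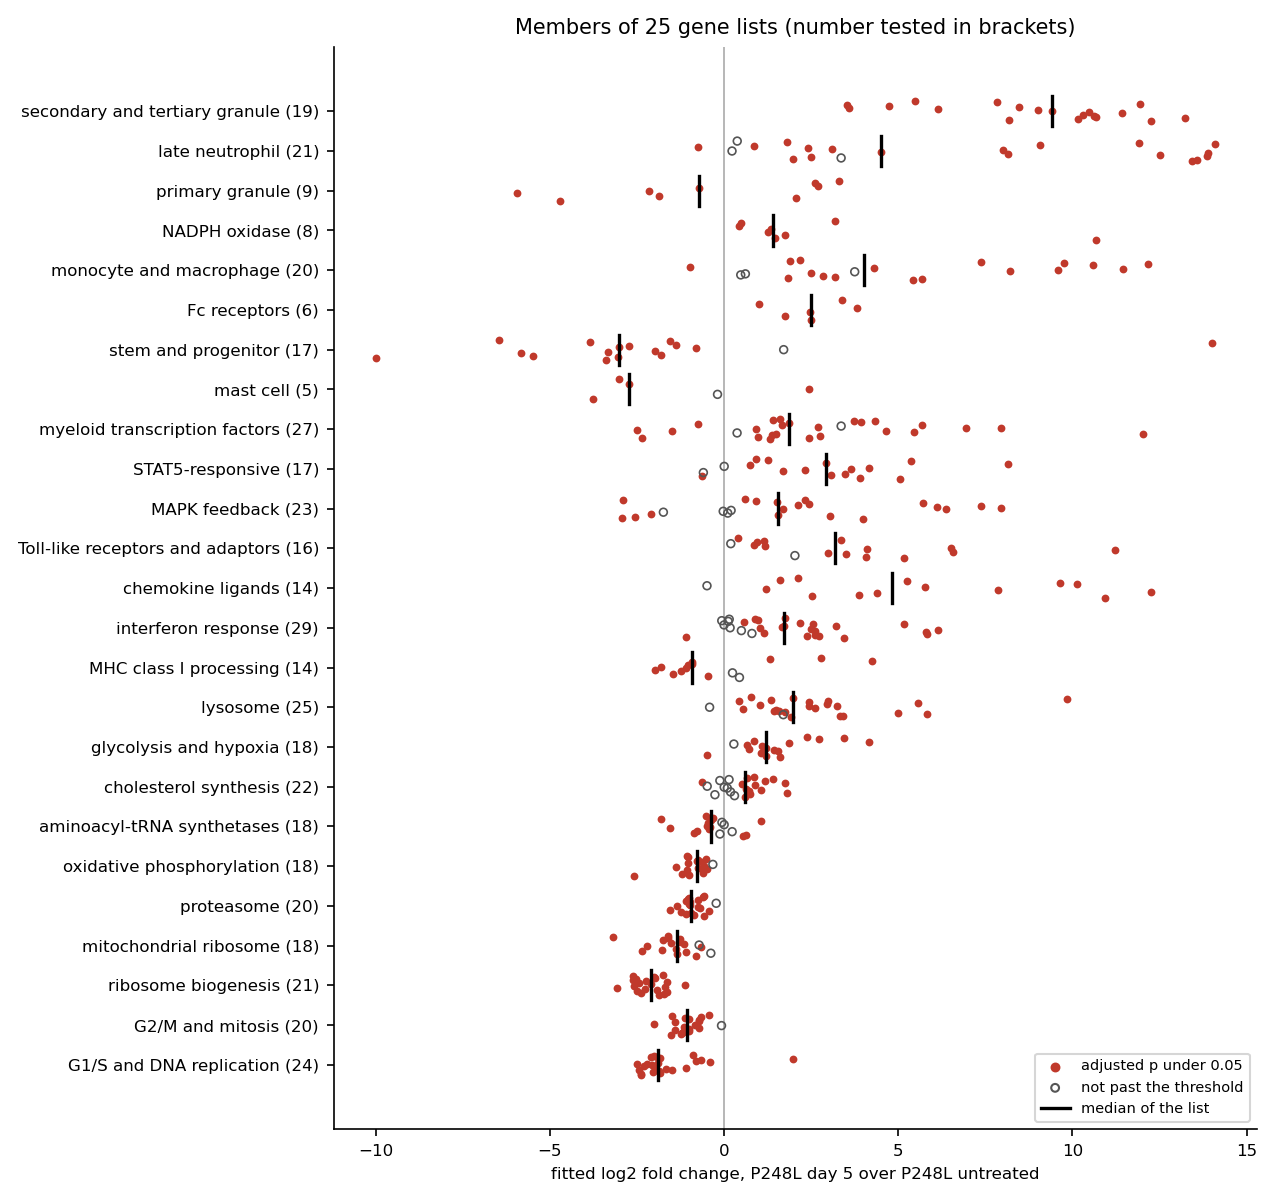
Fitted log2 fold change (day 5 over untreated, P248L) of each tested member of 25 lists; filled points passed an adjusted p of 0.05, open ones did not, and the bar is the list's median. Secondary and tertiary granule genes lie farthest right with a median of 9.42, and ribosome biogenesis genes lie wholly left of 0 with a median of -2.11.

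Sensors and messengers of innate immunity rose. Of 16 Toll-like receptors and adaptors tested 14 rose and none fell (median 3.17). Tlr13, a sensor of bacterial ribosomal RNA, had 329, 282 and 328 CPM at day 5, against 1.5, 4.65 and 4.23 CPM untreated, and Tlr2, a sensor of bacterial lipoproteins, had 252 ± 22.1 CPM at day 5 and 14.9 ± 0.691 CPM untreated. Tlr3 had almost no reads in either group, and the adaptor Ticam2 had 34.2 ± 3.96 CPM at day 5 and 30.0 ± 7.41 CPM untreated. Of 14 chemokines 13 rose and none fell (median 4.81, or 3.45 with bounds). Ccl6 had 6099, 5787 and 7655 CPM at day 5, against 1.16, 2.20 and 0.320 CPM untreated, and Ccl9 had 1761, 1742 and 2155 CPM at day 5, against 986, 764 and 702 CPM untreated. Of 13 cytokines 11 rose and 1, Il12a, fell, with the macrophage growth factor Csf1 at 338 ± 73.8 CPM at day 5 and 7.20 ± 0.756 CPM untreated and the interleukin-1 antagonist Il1rn at 225 ± 21.9 CPM at day 5 and 0.513 ± 0.171 CPM untreated. Of 15 chemoattractant receptors 12 rose and none fell; C3ar1, the receptor of complement C3a, had 454, 350.3 and 428 CPM at day 5, against 0.150, 0.229 and 0.576 CPM untreated. Of 14 integrins 6 rose and 3 fell (median 0.06, at -0.02 without untreated library 1), among them the leukocyte beta chain Itgb2 at 1044 ± 98.7 CPM at day 5 and 61.8 ± 10.9 CPM untreated, a rise, and Itga4, a fall of 1.15 ± 0.34 on the log2 scale.

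Interferon-stimulated genes rose in 21 of 29 cases and fell in 1 (median 1.73), but most stayed at low levels. The list summed to between 681 and 744 CPM at day 5 and between 262 and 320 CPM untreated, of which Parp14 had 103 ± 10.1 CPM at day 5 and 30.5 ± 13 CPM untreated. Stat2, a subunit of the interferon-activated ISGF3 complex, had 129, 117 and 108 CPM at day 5, against 33.8, 36.4 and 36.3 CPM untreated (log2 fold change 1.73 ± 0.12, adjusted p = 9.8e-10). Ifit3, an antiviral effector (chr19:34583119-34588982), had 0.695, 0.230 and 0.439 CPM at day 5, against 0.0751, 0.0656 and 0.0640 CPM untreated. Rtp4, Mx2 and Cmpk2 did not pass, and Ifit2 fell by 1.09 ± 0.23. ISGF3 binds GAAANNGAA, searched on both strands, and 12 of 21 members with a RefSeq promoter (57.1%) held it, against 8.57% of all promoters. The Ifit3 promoter, chr19:34583279-34583578 on the plus strand, held 3 copies, in capitals. That window lies inside the gene span given above, so the listed start it is set on is not the first base of the span.
Ifit3: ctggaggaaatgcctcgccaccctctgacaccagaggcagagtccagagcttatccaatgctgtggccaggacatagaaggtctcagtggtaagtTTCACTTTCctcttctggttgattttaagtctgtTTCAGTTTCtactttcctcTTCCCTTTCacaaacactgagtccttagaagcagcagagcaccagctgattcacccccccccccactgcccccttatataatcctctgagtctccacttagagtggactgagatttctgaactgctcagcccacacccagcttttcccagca
Of 12 interferon-inducible GTPases 7 rose and 2 fell (median 1.15), and Gbp7 had 133 ± 4.09 CPM at day 5 and 58.9 ± 5.83 CPM untreated.

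Of 14 genes of MHC class I presentation 9 fell and 3 rose (median -0.91). Psmb8, an immunoproteasome subunit, had 121, 128 and 157 CPM at day 5, against 751, 504 and 362 CPM untreated, and the peptide transporter Tap2 fell by 1.47 ± 0.22. The heavy chain genes H2-D1 (770 ± 62.2 CPM at day 5 and 111 ± 26.7 CPM untreated) and H2-K1 (142 ± 11.0 CPM at day 5 and 56.9 ± 11.1 CPM untreated), close copies of each other, rose with the regulator Nlrc5; without untreated library 1, 5 members rose, B2m and Tapbp included (log2 fold changes 0.76 and 0.44). Of 9 genes of MHC class II and costimulation 7 rose and none fell: the invariant chain Cd74 had 288, 249.7 and 373 CPM at day 5, against 0.488, 0.459 and 0.448 CPM untreated, while the class II chain genes H2-Aa and H2-Eb1 had almost no reads.

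Day 2 libraries of the same line place these changes in time. Between day 2 and day 5, 8382 genes (70.2%) passed, 4432 (37.1%) higher and 3950 (33.1%) lower at day 5; this contrast shares the day 5 libraries with the one above, so its calls are not independent of it. Day 2 library 3 stood apart from its replicates (median absolute log2 differences of 0.492 and 0.318, against 0.248 between the other pair) and held 3.44% of reads at the ribosomal RNA gene Rn45s. S100a9 averaged 1.29 ± 0.943 CPM untreated, 50.3 ± 16.4 CPM at day 2 and 17049.8 ± 3447 CPM at day 5, and Ngp averaged 0.135 ± 0.0850 CPM, 1.18 ± 0.908 CPM and 1507 ± 349.6 CPM at the same times. Mpo averaged 6312 ± 1238 CPM untreated, 6201 ± 2186 CPM at day 2 and 240 ± 37.5 CPM at day 5. Kit was already at 108 ± 7.86 CPM at day 2, and Cish at 120 ± 28.8 CPM.

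Several genes were lowest at day 2. F13a1 averaged 224 ± 40.5 CPM untreated, 23.0 ± 4.19 CPM at day 2 and 832 ± 59.0 CPM at day 5. Dusp6 averaged 91.9 ± 11.1 CPM untreated, 14.49 ± 3.56 CPM at day 2 and 271 ± 40.1 CPM at day 5, and Ccr2 averaged 1323 ± 229 CPM untreated, 130 ± 66.5 CPM at day 2 and 1845 ± 165 CPM at day 5. These genes were picked after their values were seen. Ncl had the opposite shape, with 3925 ± 354 CPM untreated, 7630 ± 2529 CPM at day 2 and 1087 ± 36.7 CPM at day 5. Of 29 interferon-stimulated genes 27 were higher at day 5 than at day 2, against 21 higher at day 5 than untreated.

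**Figure D3:**
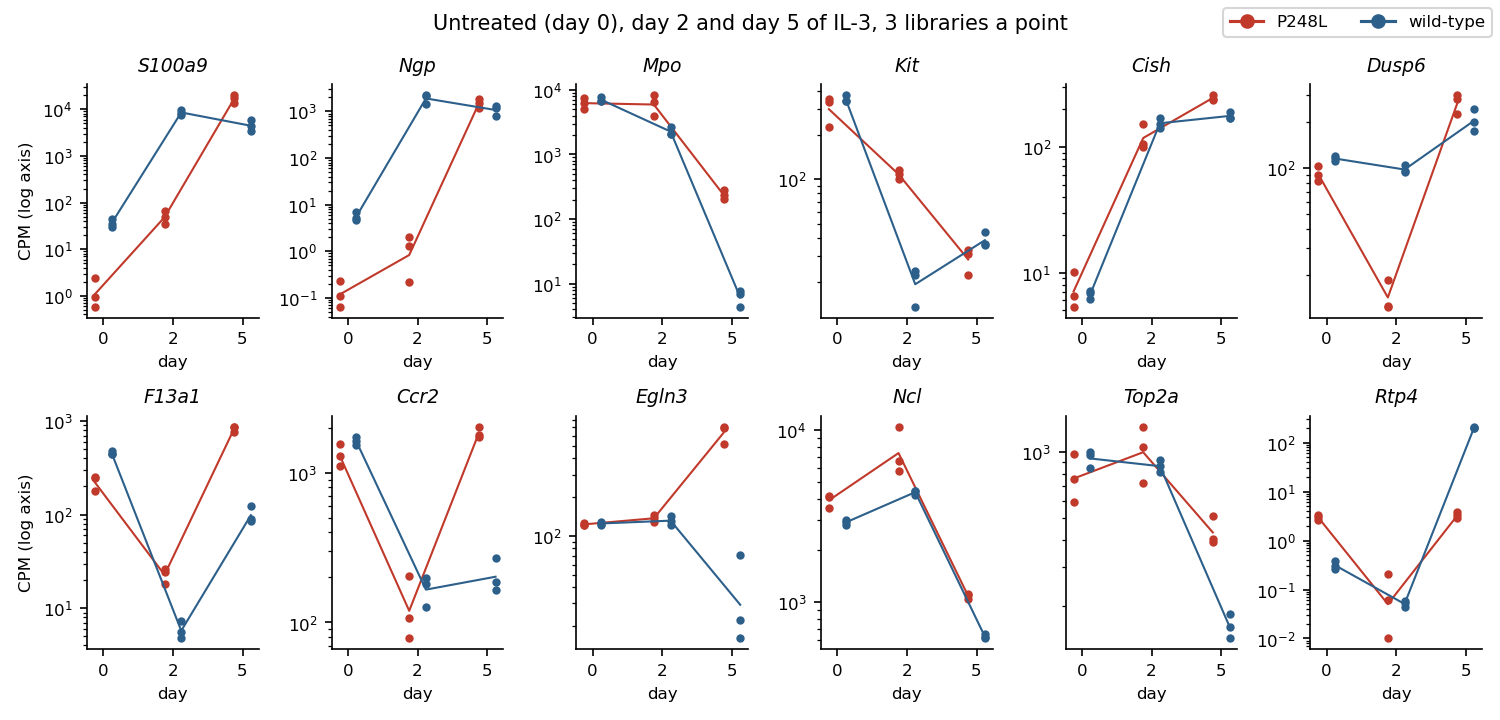
CPM (log axis, its range set for each gene) of 12 genes in untreated cells (day 0), at day 2 and at day 5, for P248L (red) and wild-type (blue), with the 3 times drawn evenly spaced; points are libraries, 3 at each time, and lines join geometric means, with a library without reads drawn at 0.01 CPM. S100a9 and Ngp reached their highest mean at day 5 in P248L cells and at day 2 in wild-type cells, and F13a1, Dusp6 and Ccr2 had their lowest P248L mean at day 2.

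The wild-type line allows the question of whether the same change of medium gave the same change after 5 days to be asked. In wild-type cells 8729 genes (73.1%) passed, 4268 (35.7%) higher and 4461 (37.4%) lower at day 5. The 3317 genes called higher in both lines were 79.8% of the P248L calls and 77.7% of the wild-type calls, and the 3461 called lower in both were 80.0% and 77.6%. Across genes the log2 fold changes had a Pearson correlation of 0.819, a description over genes that are not independent replicates; the 2 lines share no library. The difference of the 2 responses itself passed for 3207 genes (26.9%), 1750 (14.7%) more positive and 1457 (12.2%) more negative in P248L cells. Without scaling beyond library size, that split was 2568 to 965, and the wild-type split was 3174 higher to 6045 lower. Opposite calls were few, with 107 genes higher in P248L and lower in wild-type cells and 124 the other way round. The difference passed for every one of these, which opposite calls in the same fit make nearly certain, so it adds no separate support. Each line is a single transduced line, so the receptor and the line cannot be told apart.

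Interferon-stimulated genes differed most as a list. Of 29, 25 had a more negative response in P248L cells and none a more positive one (median difference -4.77, against 0.04 over all genes). Rtp4 had 3.75, 2.84 and 3.33 CPM in day 5 P248L cells and 202, 212 and 200.4 CPM in day 5 wild-type cells, with 2.98 ± 0.343 CPM in untreated P248L cells and 0.317 ± 0.0625 CPM in untreated wild-type cells (log2 difference of responses -9.14 ± 0.31, adjusted p = 2.7e-12). Ifit3 had 97.9 ± 13.7 CPM in day 5 wild-type cells (difference -7.85 ± 1.16), and the differences for Mx2 and Cmpk2 were -7.48 ± 0.88 and -7.24 ± 0.31. Stat2 (-1.41 ± 0.17), B2m (-2.78 ± 0.29) and H2-D1 (-1.94 ± 0.25) differed the same way, as did 11 of 14 class I genes. Psmb8 was among these (-1.53 ± 0.29), but its day 5 levels were close, at 135 ± 19.3 CPM in P248L and 147 ± 1.51 CPM in wild-type cells. Untreated, Psmb8 averaged 539 ± 197 CPM in P248L cells and 202 ± 30.7 CPM in wild-type cells. Of 25 lysosomal genes 19 had a more negative response in P248L cells and none a more positive one (median difference -1.28). Ctsd averaged 5426 ± 730.5 CPM in day 5 P248L cells and 31103 ± 3437 CPM in day 5 wild-type cells (difference -2.91 ± 0.28), and Ctsb (-1.80 ± 0.20) and Fth1 (-2.61 ± 0.35) followed.

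For many granule genes of neutrophils the response differed the other way. Of 19 secondary and tertiary granule genes 9 had a more positive response in P248L cells and none a more negative one (median difference 1.64). That list still summed to less in day 5 P248L cells (20865 to 27046 CPM) than in day 5 wild-type cells (38948 to 45607 CPM). Untreated, it summed to between 139 and 171 CPM in P248L and between 258 and 273 CPM in wild-type cells. Lyz2 averaged 16616 ± 2661 CPM in day 5 P248L cells and 36326 ± 4156 CPM in day 5 wild-type cells, and its response did not differ (-0.07 ± 0.30). It made up most of both day 5 sums, so these do not show how the other members compared. Later neutrophil genes were mixed: of 21 in that list 6 had a more positive and 2 a more negative response (median difference 0.57), and of 8 NADPH oxidase genes 2 were more positive and 2 more negative (-0.03). For several neutrophil genes, starting levels and not only day 5 levels differed: S100a9 averaged 17049.8 ± 3447 CPM in day 5 P248L cells and 4534 ± 1215 CPM in day 5 wild-type cells, and 1.29 ± 0.943 CPM in untreated P248L cells and 36.6 ± 7.89 CPM in untreated wild-type cells (difference of responses 6.63 ± 0.50, adjusted p = 4.3e-08). Ngp averaged 1507 ± 349.6 CPM in day 5 P248L cells and 1096 ± 265 CPM in day 5 wild-type cells (difference 5.63 ± 0.63). Untreated, Ngp averaged 0.135 ± 0.0850 CPM in P248L cells and 5.62 ± 1.13 CPM in wild-type cells. The differences for S100a8, Stfa2l1, Ltf and Camp were 6.33 ± 0.51, 5.45 ± 0.61, 5.52 ± 0.51 and 5.38 ± 1.0. Chi3l3, a chitinase-like protein of several close copies, averaged 28.5 ± 9.51 CPM in day 5 P248L cells and 0.790 ± 0.504 CPM in day 5 wild-type cells (difference 9.36 ± 0.89). Of 9 primary granule genes 7 had a more positive response in P248L cells: Mpo averaged 240 ± 37.5 CPM in day 5 P248L cells and 6.32 ± 1.76 CPM in day 5 wild-type cells (difference 5.40 ± 0.37), Elane averaged 11.8 ± 1.46 CPM in day 5 P248L cells and 0.187 ± 0.111 CPM in day 5 wild-type cells (8.0 ± 0.66), and Ms4a3 differed by 3.17 ± 0.23.

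Among progenitor and lineage genes, Hlf (3.53 ± 0.40) and Myb (1.72 ± 0.24) fell less in P248L cells and Angpt1 (-2.63 ± 0.46) fell more. Cpa3 averaged 37.8 ± 10.4 CPM in day 5 P248L cells and 2552 ± 490.2 CPM in day 5 wild-type cells, a fall in P248L cells and a rise in wild-type cells (difference -5.90 ± 0.29, adjusted p = 2.9e-10). Of 20 monocyte and macrophage genes 7 had a more positive response in P248L cells and 3 a more negative one (median difference 0.27). The list summed to between 5984 and 6871 CPM in day 5 P248L cells and between 9399 and 9633 CPM in day 5 wild-type cells. Gpnmb alone averaged 773 ± 178 CPM in day 5 P248L cells and 4233 ± 148 CPM in day 5 wild-type cells. The sums therefore do not show how the other members compared. Emr1 was among the more negative (-0.75 ± 0.18, adjusted p = 0.0041), as was the Fc receptor gene Fcgr1 (-4.63). F13a1 and Ccr2 were among the more positive, at 4.08 ± 0.26 and 3.45 ± 0.39, with F13a1 at 832 ± 59.0 CPM in day 5 P248L cells and 100.0 ± 20.2 CPM in day 5 wild-type cells. The receptors Csf1r (2.75 ± 0.22) and Csf3r (1.80 ± 0.29) had more positive responses in P248L cells and Csf2rb2 (-1.03 ± 0.19) a more negative one. The difference for Il3ra was -1.32 ± 0.48 (adjusted p = 0.0489), with 9.40 ± 1.41 CPM in day 5 wild-type cells and 8.65 ± 2.19 CPM in untreated wild-type cells; it did not pass when any one of 10 of the 12 libraries of the 4 groups was left out, with values between -0.99 and -1.48 in those fits. It also did not pass with the replicate block (adjusted p = 0.0514), with upper-quartile factors (0.0536), with counts of both strands (0.0543) or without scaling beyond library size (0.0991). Csf1r averaged 223 ± 30.0 CPM in day 5 P248L cells and 203 ± 23.0 CPM in day 5 wild-type cells, and 5.24 ± 0.336 CPM in untreated P248L cells and 32.1 ± 3.54 CPM in untreated wild-type cells. Csf3r averaged 71.3 ± 19.3 CPM in day 5 P248L cells and 62.5 ± 11.6 CPM in day 5 wild-type cells. Untreated, Csf3r averaged 12.7 ± 1.46 CPM in P248L cells and 38.8 ± 3.52 CPM in wild-type cells.

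Some oxygen-response and amino acid genes moved in opposite directions in the 2 lines. In wild-type cells 7 of 18 glycolysis and oxygen-response genes rose and 5 fell (median log2 fold change 0.08), with Aldoa higher at day 5 in both lines (wild-type 0.60 ± 0.19), and genes of amino acid starvation and unfolded proteins gave 8 higher and 8 lower of 18 (median -0.03). Egln3 averaged 638 ± 107 CPM in day 5 P248L cells and 36.3 ± 30.0 CPM in day 5 wild-type cells, with 123 ± 2.56 CPM in untreated P248L cells and 125 ± 3.15 CPM in untreated wild-type cells (difference 4.16 ± 0.49, adjusted p = 7.3e-06). Vegfa (4.09 ± 0.29) and Pgk1 (2.04 ± 0.34) differed alike, and 10 of 18 members of their list had more positive responses in P248L cells and none a more negative one. Asns (2.74 ± 0.16) and the amino acid transporter Slc7a5 (2.48 ± 0.26) rose in P248L and fell in wild-type cells, and 11 of the 18 genes of their list had a more positive response in P248L cells and 1 a more negative one. Aminoacyl-tRNA synthetases mostly fell in both lines, 11 of 18 in P248L and 15 of 18 in wild-type cells, with a more positive response in P248L cells for 14. Mitotic genes fell less in P248L cells, 17 of 20 with the difference called (median 1.36): Top2a averaged 435 ± 68.3 CPM in day 5 P248L cells and 162 ± 20.6 CPM in day 5 wild-type cells (difference 1.70 ± 0.28), and Ccna2 and Mcm6 differed by 1.24 ± 0.18 and 1.5 ± 0.19.

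The 12 genes with the largest differences also held some with few reads in P248L cells, for which the fitted value depends on the prior count. Serpinb9e averaged 89.3 ± 13.7 CPM in day 5 P248L cells and 0.0416 ± 0.0365 CPM in day 5 wild-type cells (difference 13.87 ± 3.0), and the call was lost without wild-type untreated library 1, where the fitted difference was 10.85. Nat8l averaged 4.83 ± 1.30 CPM in day 5 P248L cells, at least 121-fold above untreated P248L cells without a read, and 30.4 ± 7.42 CPM in day 5 wild-type cells, against 4.70 ± 0.623 CPM in untreated wild-type cells (6.89 ± 0.86). Hpgd was near 0 in both P248L groups and fell in wild-type cells (9.09 ± 2.10). Nrg2 fell in both lines (7.29 ± 1.42), with 3 reads over the day 5 and 60 over the untreated P248L libraries, a ratio of 13.9 (95% counting interval 4.53 to 69.3); the calls were lost without P248L day 5 library 1 for Hpgd (6.25) and library 3 for Nrg2 (6.4). Rragd, a lysosomal GTPase of nutrient sensing, had no read in day 5 P248L cells and 11 reads over the untreated P248L libraries, at least 2.55-fold lower, and 54.7 ± 13.4 CPM in day 5 wild-type cells (-14.34 ± 1.58), and Plekhg1 had 0.289 ± 0.0925 CPM in day 5 P248L cells and 44.5 ± 4.15 CPM in day 5 wild-type cells (-10.23 ± 0.78).

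**Figure D4:**
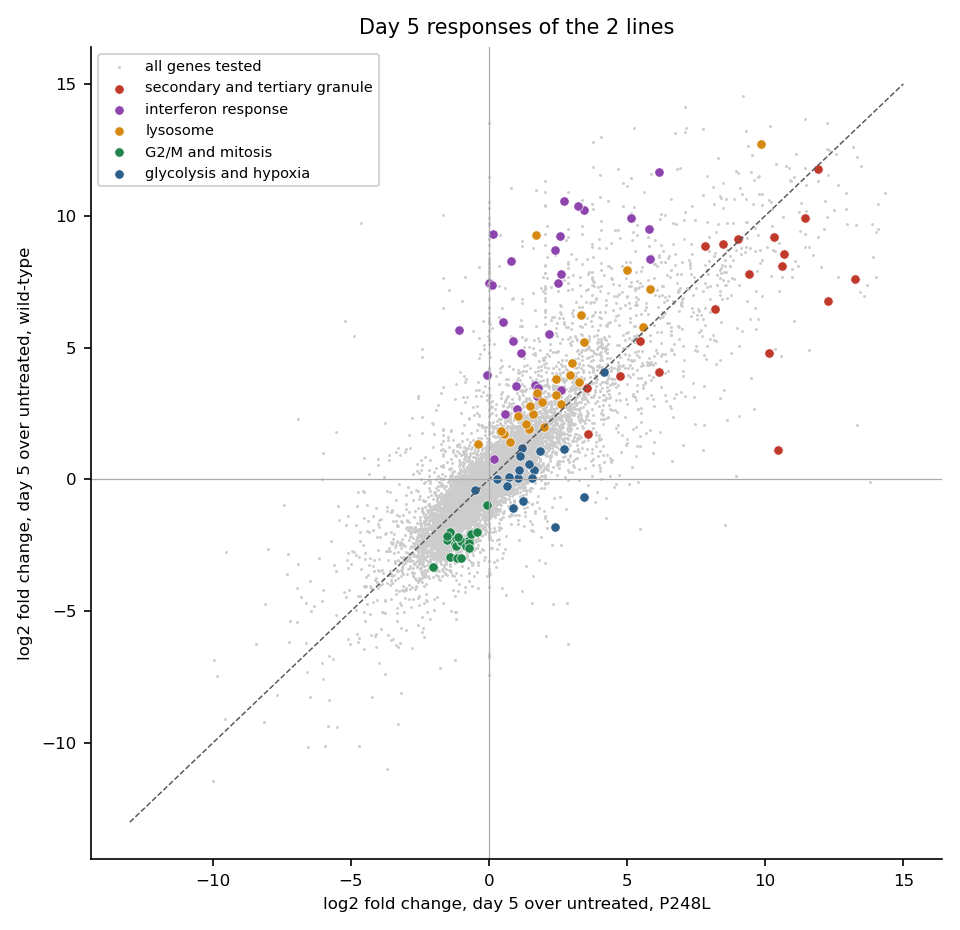
Log2 fold change of day 5 over untreated for 11942 genes, P248L on the horizontal and wild-type on the vertical axis, with the members of 5 lists coloured and a dashed line of equal responses. Interferon response and lysosome genes lie mostly above the line, with median differences (P248L minus wild-type) of -4.77 and -1.28, and secondary and tertiary granule genes mostly below it, with a median difference of 1.64.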

How the data were processed

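RNA from 3 libraries per group was sequenced as total RNA. The deposited files hold counts of reads per gene that the authors made, with STAR and the mm10 genome per the submitters' processing notes and without stated versions. The column of the strand that holds the genes was used as deposited. Summary rows that name no gene, between 33.8% and 37.5% of the reads of a day 5 or untreated P248L library, stayed out of library sizes and tests.

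Genes kept by filterByExpr in edgeR (version 4.0.16, R 4.3.3) at a minimum count of 10, 11942 of 23329, were fitted with quasi-likelihood models over 18 libraries in 6 groups of 3, with TMM factors and Benjamini-Hochberg adjustment over all genes tested. CPM are per 1000000 reads after TMM scaling. The response of P248L cells minus that of wild-type cells was tested as a contrast of the 4 group means. Where a group had no read, the fold is a bound computed with 3 reads over that group. The fits were tested on simulated data in which few genes changed, and only in the day 5 P248L libraries. Such data do not test the scaling where most genes change, as they did here. DESeq2 (1.42.0), limma (3.58.1), other scalings, filters, thresholds and left-out libraries were alternatives; fitting without scaling beyond library size was added after seeing the data. Sequences are those of RefSeq (GRCm38.p6), matched by symbol.

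Members and lists were chosen with earlier results of these data known. Named genes are the 12 largest rises and falls and the 5 genes with most reads in each group. They also include the 6 largest differences each way and the receptor genes. Up to 3 more were named per list where tested members called in one direction were not outnumbered by the rest. Further genes were chosen after their values were seen. Some genes that this rule names are not reported here.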

Additional observations from a re-analysis of the deposited data

Results flagged for a closer look

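The results here were singled out because the change from untreated to day 5 differed between P248L and wild-type cells in a test of the difference itself with edgeR's quasi-likelihood method, which passed for 3207 genes. Values are log2 differences, the response of P248L cells minus that of wild-type cells. Responses were more positive in P248L cells for Serpinb9e (13.87), Chi3l3 (9.36), Hpgd (9.09), Elane (8.0), Nrg2 (7.29), Nat8l (6.89), S100a8 (6.33), S100a9 (6.63), Stfa2l1 (5.45), Ngp (5.63), Ltf (5.52), Camp (5.38), Mpo (5.40), Ms4a3 (3.17) and Csf1r (2.75). They were also more positive for Csf3r (1.80), Prom1 (6.34), Hlf (3.53), Myb (1.72), F13a1 (4.08), Ccr2 (3.45), Vegfa (4.09), Egln3 (4.16), Pgk1 (2.04), Asns (2.74), Slc7a5 (2.48), Mcm6 (1.5), Top2a (1.70), Ccna2 (1.24) and Lbr (1.88). Responses were more negative in P248L cells for Rragd (-14.34), Plekhg1 (-10.23), Rtp4 (-9.14), Ifit3 (-7.85), Mx2 (-7.48), Cmpk2 (-7.24), Il3ra (-1.32), Csf2rb2 (-1.03), Angpt1 (-2.63), Cpa3 (-5.90), Ctsd (-2.91), Ctsb (-1.80), Fth1 (-2.61), Stat2 (-1.41), H2-D1 (-1.94), B2m (-2.78) and Psmb8 (-1.53). Some values depend on the prior count, because a group had no read: untreated P248L cells for Serpinb9e, Hpgd, Nat8l and Prom1, day 5 P248L cells for Rragd, and day 5 wild-type cells for Nrg2. Without single libraries the calls for Hpgd, Nrg2, Serpinb9e and Il3ra were lost. That for Il3ra was also lost with the replicate block, with upper-quartile factors, with counts of both strands and without scaling beyond library size.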

How the results depend on the processing

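Over the alternatives run, the counts of genes changed were within 1.5 times those reported except under stricter thresholds. At an adjusted p under 0.01 the responses differed for 1914 genes. With a 2-fold change also required, 5345 genes changed in P248L cells from untreated to day 5, 1864 differed in response, 5401 changed from day 2 to day 5 and 5692 changed in wild-type cells. With 1 library left out, these counts ranged from 7881 to 8700 for P248L cells, from 2493 to 4019 for the difference, from 7838 to 8328 from day 2 to day 5 and from 8240 to 8394 for wild-type cells. Fitted on the libraries of each comparison alone, 7451 of 11233 genes tested passed in P248L cells and 9486 genes in wild-type cells. Both counts lay outside the ranges with 1 library left out. Such fits gave 3369 genes for the difference and 7669 from day 2 to day 5. DESeq2 called 8510 and limma-voom 8505 genes in P248L cells. Upper-quartile factors placed the median log2 fold change of all genes at -0.11 and no scaling beyond library size at -0.25, against -0.02. The median of the integrins was 0.06, and -0.031 with upper-quartile factors, -0.18 without scaling and -0.017 without untreated library 1, with 0.23 as the highest value with 1 library left out; the cause was not tested. With the replicate block there were 8534 calls in P248L cells, 3253 for the difference, 8442 from day 2 to day 5 and 8800 in wild-type cells; same-numbered day 5 and untreated P248L libraries had deviations that correlated at -0.0792, 0.0777 and -0.266, so the numbers were not taken as pairs. Of the values for single genes under the alternatives, 5024 kept their side of the threshold, 88 lost and 34 gained a call, and none reversed. List medians that moved were those of chemoattractant receptors (2.67 without day 5 library 1), chemokines (5.42 without untreated library 2), lysosomal genes (2.57 without untreated library 1), lymphoid genes (1.21 without the same library) and dendritic cell genes (0.78 without day 5 library 2). Genes with fewer than about 1 CPM in both groups gave changes that this depth leaves imprecise.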

Other observations

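Genes of the p53 response and of apoptosis rose in 14 of 21 cases and fell in 3 at day 5 in P248L cells (median log2 fold change 1.69). Ccng1, a p53 target, averaged 514 ± 24.9 CPM at day 5 and 229 ± 35.4 CPM untreated, and Trp53inp1, another p53 target, averaged 209.7 ± 8.26 CPM at day 5 and 17.8 ± 5.74 CPM untreated. Trp53 itself averaged 51.8 ± 6.49 CPM at day 5 and 188 ± 46.5 CPM untreated, and the anti-apoptotic Bcl2 averaged 24.7 ± 2.54 CPM at day 5 and 91.4 ± 10.6 CPM untreated. Of 9 nuclear envelope genes 3 rose and 5 fell. Lmna, which encodes the A-type lamins, averaged 42.8 ± 3.14 CPM at day 5 and 0.0557 ± 0.0158 CPM untreated, while the B-type lamin gene Lmnb1 fell by 1.66 ± 0.13 on the log2 scale. Lbr, the lamin B receptor, averaged 295 ± 52.2 CPM at day 5 and 656 ± 53 CPM untreated.

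Of 7 genes of DNA methylation and its removal 2 rose and 4 fell (median -0.74). The de novo methyltransferase Dnmt3b averaged 9.40 ± 1.23 CPM at day 5 and 82.8 ± 5.81 CPM untreated, and the demethylating enzyme Tet1 averaged 0.166 ± 0.0799 CPM at day 5 and 5.83 ± 2.99 CPM untreated, while Dnmt3a rose by 1.29 ± 0.16. Of 13 inflammasome and caspase genes 9 rose and 1 fell. The sensor Nlrp3 averaged 242 ± 35.7 CPM at day 5 and 28 ± 9.61 CPM untreated, and Casp1, the caspase it activates, averaged 50.4 ± 3.58 CPM at day 5 and 76.9 ± 12.2 CPM untreated. Of 14 eicosanoid enzymes 10 rose and 2 fell (median 2.60). Alox5, which starts leukotriene synthesis, averaged 348 ± 16.2 CPM at day 5 and 9.28 ± 2.35 CPM untreated, and the cyclooxygenase Ptgs1 averaged 316 ± 31.6 CPM at day 5 and 50.9 ± 3.88 CPM untreated. Pla2g4a, the phospholipase that releases arachidonic acid, fell by 1.70 ± 0.17.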
